A study of Mus musculus with 3 samples.

Results

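The 9 genes described here encode the TGF-β ligands (*Tgfb1*, *Tgfb2* and *Tgfb3*), the latent TGF-β binding proteins (*Ltbp1*, *Ltbp2*, *Ltbp3* and *Ltbp4*) and the activin β subunits (*Inhba* and *Inhbb*). They were taken by symbol from a table of 15554 rows of protein coding genes, and each symbol occupied 1 row. The table gives the expression of NIH3T3, an established line of mouse embryonic fibroblasts, in 3 libraries. CTRL cells were not stimulated, GDF15 cells received GDF15 protein at 100 ng/mL, and TGF-β cells received TGF-β protein at 4 ng/mL. All cells were kept in serum-free IMDM, and stimulation lasted 24 h. The labels give the isoform of the added TGF-β nowhere, and the values below are those of the mRNA of the cells. RNA samples of a treatment were pooled and 1 library was sequenced per treatment, so that no difference has a replicate check, no test between treatments was possible and no p-value is given.

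TGF-β is made as a precursor from which furin cuts the mature growth factor. The propeptide stays bound to it as the latency associated peptide and keeps it inactive. Latent TGF-β binding proteins (LTBPs) are large matrix glycoproteins related to fibrillin. LTBP1, LTBP3 and LTBP4 can be joined to the latency associated peptide by disulfide bonds and place the latent complex in the matrix, from which integrins and proteases release it, whereas LTBP2 is not known to bind latent TGF-β and is found with fibrillin microfibrils. Fibroblasts are a major source of these proteins, and TGF-β signaling in fibroblasts is best known for raising the synthesis of matrix.

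Much of what follows concerns the *Ltbp* genes, and promoter sequence is shown for *Ltbp2*, which was higher in both stimulated libraries, for *Ltbp3*, the member with the next largest difference by TGF-β, and for *Ltbp4*, which was lower in TGF-β. The stretches are from RefSeq (GRCm38.p6) and lie upstream of the start sites of RefSeq and of GENCODE M21. Capitals mark CAGAC, the core of a SMAD binding element, read on both strands (GTCTG on the other strand).

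*Ltbp2*, chr12:84876533-84876741, minus strand: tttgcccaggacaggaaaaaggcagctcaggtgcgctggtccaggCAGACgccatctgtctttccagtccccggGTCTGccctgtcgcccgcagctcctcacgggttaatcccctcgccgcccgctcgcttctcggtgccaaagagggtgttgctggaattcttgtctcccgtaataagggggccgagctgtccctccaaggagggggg

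*Ltbp3*, chr19:5740650-5740899, plus strand: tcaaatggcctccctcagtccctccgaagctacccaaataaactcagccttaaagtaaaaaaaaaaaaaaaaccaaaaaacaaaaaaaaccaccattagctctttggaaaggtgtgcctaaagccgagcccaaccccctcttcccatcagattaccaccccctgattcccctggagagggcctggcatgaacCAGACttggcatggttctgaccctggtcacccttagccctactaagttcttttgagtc

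*Ltbp4*, chr7:27337693-27337862, minus strand: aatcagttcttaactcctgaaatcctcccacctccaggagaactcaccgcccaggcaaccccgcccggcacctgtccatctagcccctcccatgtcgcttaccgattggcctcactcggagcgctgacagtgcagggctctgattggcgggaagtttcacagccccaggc

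The RefSeq table held promoter windows for 8 of the 9 members, 11 windows in all, each with 250 bases before and 50 bases after a start site. There was none for *Tgfb3*. The *Ltbp2* window held 3 matches of CAGAC on either strand, which begin at -205, -176 and 29 from the start site. At least 3 matches were found in 3.90% of all 32851 windows of the same length, at least 2 in 16.2% and at least 1 in 49.6%. *Ltbp3* had 2 matches, the windows of *Ltbp1* had 1 and 2, and *Tgfb2* had 2. The windows of *Tgfb1*, *Inhba* and *Inhbb* and all 3 windows of *Ltbp4* had 0. TGANTCA, the AP-1 element, was matched in 7.81% of all windows. Among the members only the *Ltbp3* window held it, at the start site itself, where it overlaps a CAGAC match. The site is shown with 5 bases on either side, capitals marking both motifs.

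*Ltbp3*, chr19:5740889-5740908, plus strand: tctttTGAGTCAGACactgg

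Such an overlap was present in 0.280% of all windows. A match describes these letters and is no evidence that a factor binds there.

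The unit of expression is FPKM, in which fragments are divided by the length of a gene and by the number of mapped fragments, so levels can be compared between genes. The smallest values of a library are multiples of what 1 fragment is worth, which gave an estimated depth of 17.3 for CTRL, 20.0 with GDF15 and 16.3 with TGF-β, each in units of 1e6 fragments. The 95% Poisson intervals given below rest on these depths and on the longest coding transcript of each gene, and they cover counting error only. The line was checked by markers. All 9 fibroblast markers, among them *Col1a1*, *Vim* and *Pdgfrb*, had a mean FPKM of 1 or more, and the summed FPKM of 5 epithelial markers was between 0.268 and 0.735. That of 3 endothelial markers was between 0.118 and 0.175, and that of 4 immune markers between 1.34 and 1.86, mostly from *Cd68*. Of 2 platelet or megakaryocyte markers, *Pf4* was listed at 0 and *Itga2b* was between 2.55 and 4.41. Some of these markers differed by more than 1.5-fold from CTRL. Of the 9 fibroblast markers, 2 were higher (*Col1a1* and *Fn1*) and 1 lower (*S100a4*, at -0.59 on the log2 scale of FPKM + 1) in GDF15, and 2 were higher (*Col1a1* and *Col1a2*) and 1 lower (*Pdgfra*, at -0.79) in TGF-β, against 0.791% of all rows higher and 1.02% lower in GDF15 and 1.65% and 1.95% in TGF-β. *Itga2b* was lower in TGF-β, at -0.61. The part of these transcripts in the results below was not tested. In pooled RNA, fewer expressing cells and less RNA per cell cannot be told apart.

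In unstimulated NIH3T3 fibroblasts, 7 of the 9 genes had an FPKM above 1. *Ltbp3* (51.8) and *Ltbp4* (49.2) were the most abundant, and their counting intervals overlapped (50.3 to 53.3 and 47.8 to 50.6). *Tgfb1*, the ligand with the widest expression among tissues, followed at 28.7. *Tgfb3* (20.9, interval 19.8 to 22.1) and *Ltbp2* (19.4, interval 18.7 to 20.3) were next, with counting intervals that overlapped in part. *Ltbp1* was at 16.7 and *Inhba*, the subunit of activin A, at 3.95. *Tgfb2* (0.224) and *Inhbb*, the subunit of activin B, which was listed at 0, were at the lower end. In CTRL, *Ltbp3* exceeded 93.1% of all rows of the table, *Tgfb1* 86.1%, *Inhba* 49.7% and *Tgfb2* 35.5%.

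**Figure D1:**
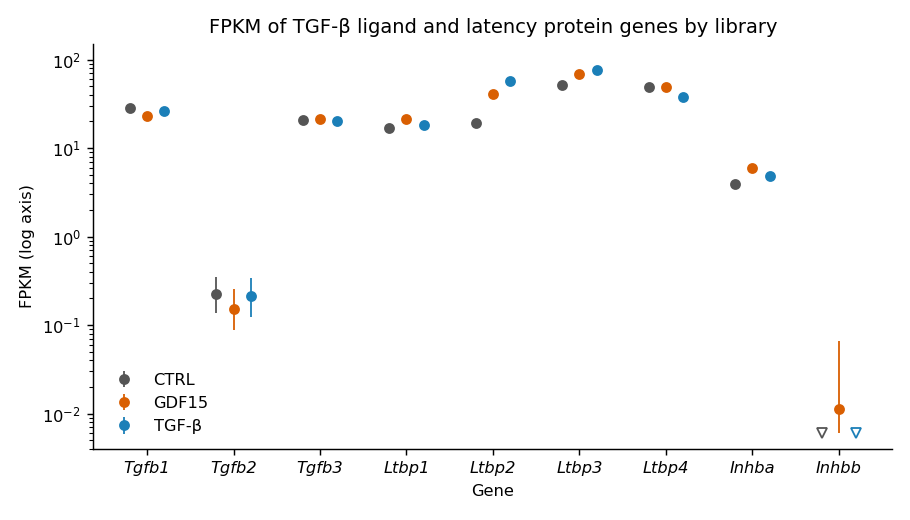
FPKM of the 9 genes on a log axis in CTRL, GDF15 and TGF-β (1 pooled library each), with bars for the 95% Poisson interval of the estimated fragments, which are smaller than the points for most genes. Open triangles at the bottom mark values listed at 0, and the points of *Ltbp2* spread from 19.4 to 57.8 while those of *Tgfb3* lie between 20.0 and 21.1.

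The order differed in the stimulated libraries mainly through *Ltbp2*. In GDF15, *Ltbp3* (69.3) was followed by *Ltbp4* (49.2) and *Ltbp2* (40.7), and then by *Tgfb1* (23.1), *Ltbp1* (21.1) and *Tgfb3* (21.1), whose intervals overlapped. In TGF-β, *Ltbp2* (57.8) stood above *Ltbp4* (37.7), the reverse of CTRL, and *Tgfb3* (20.0) and *Ltbp1* (18.3) again overlapped in their intervals. *Ltbp3* was the highest and *Tgfb2* and *Inhbb* were the lowest of the 9 in all 3 libraries.

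*Ltbp2* lies on the minus strand of chromosome 12 (GRCm38, 84783212 to 84876532). It had an FPKM of 19.4 in CTRL, 40.7 with GDF15 and 57.8 with TGF-β, with counting intervals of 18.7 to 20.3, 39.7 to 41.8 and 56.4 to 59.2. The libraries were thus ordered CTRL, GDF15, TGF-β, and counting error was small beside the gaps. On the scale of log2(FPKM + 1), which is used for all differences here, GDF15 exceeded CTRL by 1.03 and TGF-β exceeded CTRL by 1.52. The plain ratios of FPKM were 2.10 and 2.97. The study counts a gene as differentially expressed when it differs more than 2-fold. *Ltbp2* was the only one of the 9 genes past this criterion, in GDF15 and in TGF-β. Over all rows, 0.212% were more than 2-fold higher in GDF15 than in CTRL and 0.579% in TGF-β, while 0.0772% and 0.334% were more than 2-fold lower.

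No replicate error exists, and each difference was therefore set beside a local spread, computed as the scaled median absolute deviation over the gene and the 500 others nearest in mean FPKM. For *Ltbp2*, the local spread was 0.21 for GDF15 and 0.23 for TGF-β. Of these 500 other genes, 4 had a higher difference by GDF15 than *Ltbp2* and 3 by TGF-β. Among all 15554 rows, the difference of *Ltbp2* ranked 30 by GDF15 and 32 by TGF-β. TGF-β exceeded GDF15 by 0.49 for this gene, against a local spread of 0.14, and 6 of the 500 nearest genes had a higher value. Both comparisons with CTRL share the CTRL library. *Ltbp2* lay close to the 2-fold criterion for GDF15. The longest coding transcript of *Ltbp2* has 6769 bases, and the running median of the difference at this length was 0.11 by GDF15 and 0.01 by TGF-β. After removal of this trend *Ltbp2* exceeded CTRL by 0.92 in GDF15 and by 1.51 in TGF-β. Its exons overlap 764 bases of *D030025P21Rik*, an antisense gene. The libraries were stranded, but the strand setting of the counting is not given in the sources used here, and reads of both genes may have been counted together.

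**Figure D2:**
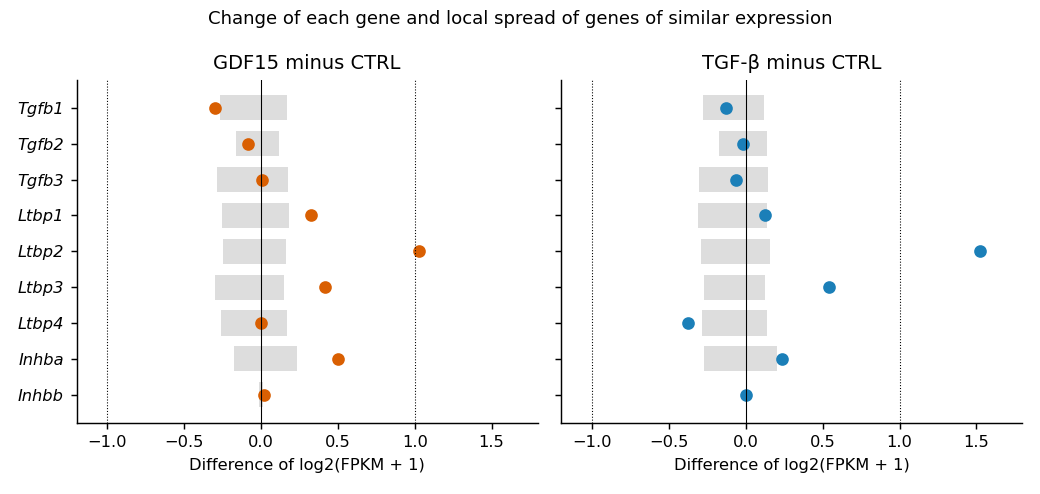
Difference of log2(FPKM + 1) of each gene between a stimulated library and CTRL (points), with grey bars from 1 local spread below to 1 local spread above the local median of the gene and the 500 others nearest in mean FPKM. Dotted lines mark 2-fold, which *Ltbp2* passed with 1.03 by GDF15 and 1.52 by TGF-β, and the other 8 genes lay inside it.

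The other LTBP genes differed less and not in one direction. *Ltbp3* (chromosome 19, 5740904 to 5758532, plus strand), whose protein binds latent TGF-β and is needed for normal bone and tooth development, had an FPKM of 51.8 in CTRL, 69.3 with GDF15 and 75.7 with TGF-β. Both stimulated libraries were above CTRL, by 0.41 and 0.54 on the log2 scale, and 14 and 18 of the 500 nearest genes had a higher difference. *Ltbp1* (chromosome 17, 75005568 to 75392512, plus strand), the founding member of the family and a carrier of latent TGF-β1, was at 16.7, 21.1 and 18.3. It was higher in GDF15 by 0.33 and in TGF-β by 0.13, with local spreads of 0.22 and 0.23. *Ltbp4* (chromosome 7, 27305136 to 27337692, minus strand), which binds latent TGF-β1 and takes part in elastic fiber assembly with fibulin-5, was at 49.2 in CTRL, 49.2 with GDF15 and 37.7 with TGF-β. Its difference to CTRL was 0.0016 in GDF15 and -0.37 in TGF-β. The local spread was 0.21 in both, and 46 of the 500 nearest genes had a lower difference by TGF-β. Between TGF-β and GDF15 directly it was -0.38, against a local spread of 0.14, and 11 of the 500 nearest genes had a lower value. *Ltbp4* has start sites of long and short forms, which the gene level FPKM does not separate.

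The makeup of LTBP mRNA differed accordingly. The summed FPKM of the 4 *Ltbp* genes was 137 in CTRL, 180.5 with GDF15 and 189 with TGF-β. *Ltbp2* accounted for 14.2% of this sum in CTRL, 22.6% with GDF15 and 30.5% with TGF-β. The share of *Ltbp4* ran the other way, with 35.9%, 27.3% and 19.9%, and that of *Ltbp3* stayed between 37.8% and 40.0%. Of the difference of the sum between GDF15 and CTRL, 49.1% came from *Ltbp2* and 40.4% from *Ltbp3*. Between TGF-β and CTRL, *Ltbp2* contributed 38.3 and *Ltbp3* 23.9 FPKM to a difference of 52.4, while the contribution of *Ltbp4* was -11.5. When *Ltbp2*, the member not known to carry latent TGF-β, was left out, the sum of *Ltbp1*, *Ltbp3* and *Ltbp4* was 118 in CTRL, 139.7 with GDF15 and 132 with TGF-β.

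**Figure D3:**
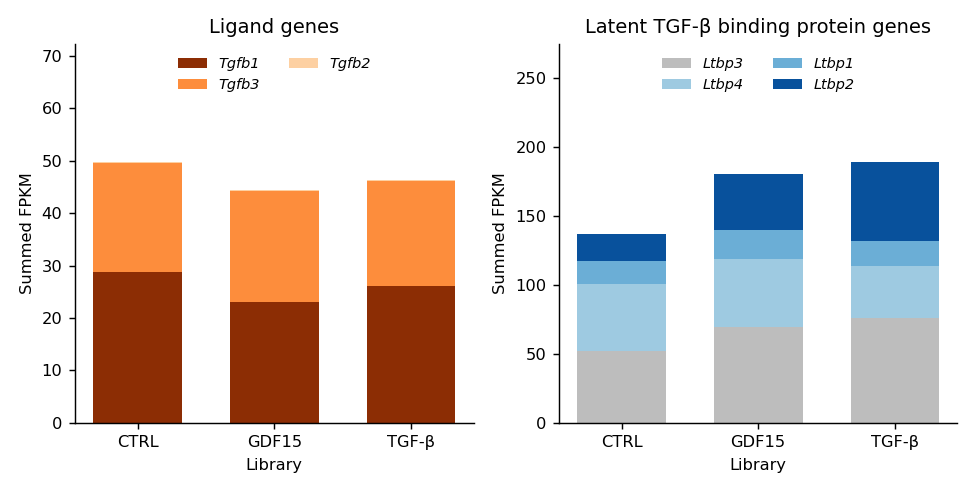
Summed FPKM of the ligand genes (left) and of the *Ltbp* genes (right) in the 3 libraries, with each gene as a segment of a bar that starts at 0. The ligand sum lies between 44.4 and 49.8, with *Tgfb2* too low to be seen, and the *Ltbp2* segment grows from 19.4 in CTRL to 57.8 in TGF-β.

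None of the ligand genes was past 1.5-fold on this scale. *Tgfb1* (chromosome 7, 25687002 to 25705077, plus strand) had an FPKM of 28.7 in CTRL, 23.1 with GDF15 and 26.2 with TGF-β. CTRL was the highest of the 3 libraries, and GDF15 the lowest. On the log2 scale the difference of *Tgfb1* to CTRL was -0.30 in GDF15 and -0.13 in TGF-β (local spreads 0.22 and 0.20). Of the 500 nearest genes, 52 had a lower difference by GDF15. *Tgfb3* (chromosome 12, 86056745 to 86079041, minus strand), a ligand known for palate development, was at 20.9, 21.1 and 20.0, and its differences of 0.01 and -0.06 were within the local spread of 0.23 and 0.22. *Tgfb2* (chromosome 1, 186622792 to 186705989, minus strand), a ligand known for heart and eye development, was at 0.224, 0.152 and 0.211. These values correspond to an estimated 19.9, 15.5 and 17.6 fragments, the counting intervals overlapped (0.137 to 0.349, 0.0869 to 0.254 and 0.125 to 0.341), and a difference was not detectable at this depth.

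*Tgfb1* made up 57.6% of the summed FPKM of the 3 ligand genes in CTRL, 52.2% with GDF15 and 56.4% with TGF-β. *Tgfb3* made up 42.0%, 47.5% and 43.1%, and *Tgfb2* at most 0.454%. The sum itself was 49.8, 44.4 and 46.3 in the same order. The *Ltbp* genes known to carry latent TGF-β (*Ltbp1*, *Ltbp3* and *Ltbp4*) exceeded the ligand sum in all 3 libraries, with a ratio of 2.36 in CTRL, 3.15 with GDF15 and 2.84 with TGF-β. The running median of the difference by GDF15 was 0.11, 0.06 and 0.06 at the transcript lengths of *Ltbp1*, *Ltbp3* and *Ltbp4*. At those of *Tgfb1* and *Tgfb3* it was -0.08 and -0.02, and the ratio was not recomputed without this trend. These are ratios of mRNA levels, and protein was not measured.

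Activins signal through receptors that use the same SMAD proteins as TGF-β. *Inhba* (chromosome 13, 16011851 to 16031621, plus strand) had an FPKM of 3.95 in CTRL, 6.01 with GDF15 and 4.82 with TGF-β, with counting intervals of 3.59 to 4.33, 5.60 to 6.45 and 4.40 to 5.26. GDF15 was the highest library. Its difference to CTRL was 0.50, against a local spread of 0.20, and 12 of the 500 nearest genes had a higher one. TGF-β exceeded CTRL by 0.23. After removal of the length trend the differences of *Inhba* to CTRL were 0.39 in GDF15 and 0.22 in TGF-β. *Inhbb* (chromosome 1, 119415465 to 119422248, minus strand) was listed at 0 in CTRL and TGF-β and at 0.0113 in GDF15, which is an estimated 0.962 fragments. All 3 values are under the floor of 3 fragments, an FPKM of 0.0408 in CTRL and 0.0433 in TGF-β, and the 95% Poisson intervals of these libraries reach 0.0501 and 0.0532.

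In the list as a whole, 1 of 9 genes was more than 1.5-fold higher than CTRL in each stimulated library (*Ltbp2* in both) and 0 were more than 1.5-fold lower. Over all rows, 0.791% were more than 1.5-fold higher in GDF15 and 1.65% in TGF-β, while 1.02% and 1.95% were lower. The count was 2 in GDF15 with a pseudocount of 0.1 or none, with *Inhba* as the other gene, and 2 in TGF-β after upper quartile scaling or removal of the expression trend, with *Ltbp3*. The 9 genes had a median difference to CTRL of 0.02 in GDF15 and 0.00 in TGF-β, beside 0.00 over all rows in both, and each of these medians is the value of *Inhbb*, which is under the floor. *Tgfb2* and *Inhbb* have a mean FPKM below 1. Without them, the median of the other 7 was 0.33 in GDF15 and 0.13 in TGF-β. For all rows that reach this mean it was -0.03 and -0.07. Part of the gap in GDF15 goes with transcript length. When the running median at the length of each gene was subtracted, the median of the 7 was 0.22 in GDF15 and 0.12 in TGF-β. For all rows that reach this mean it was then 0 and -0.0004. With and without this step, the middle gene of the 7 was *Ltbp1*. Between TGF-β and GDF15 directly, 0 of the 9 genes differed more than 1.5-fold, against 0.624% of all rows higher in TGF-β and 0.399% lower.

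**Figure D4:**
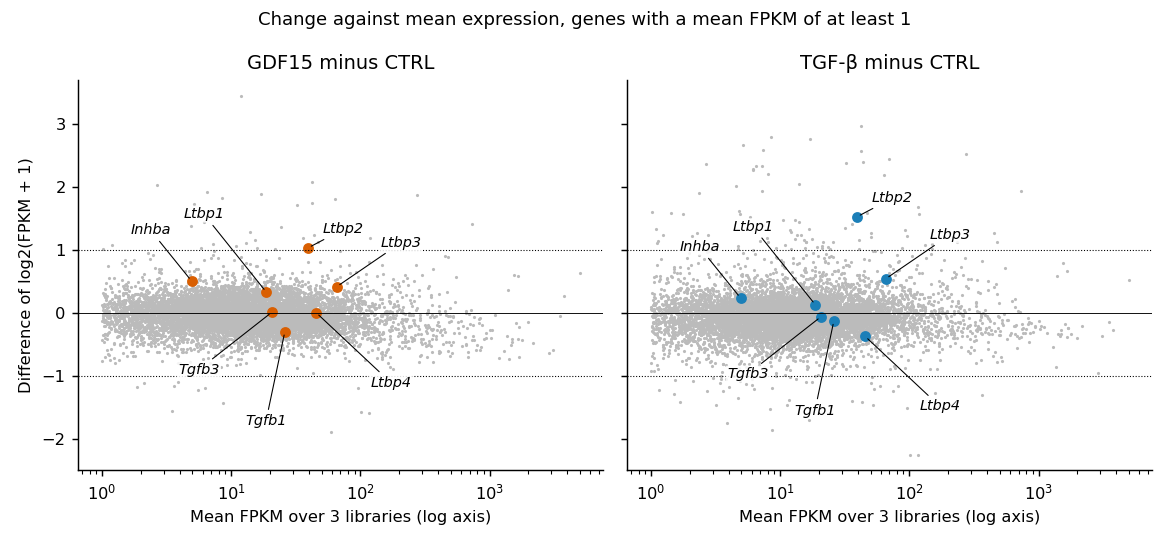
Difference of log2(FPKM + 1) against the mean FPKM over the 3 libraries (log axis) for the 9226 genes whose mean FPKM was 1 or more (grey) and for 7 of the 9 genes described here (colored, named). *Tgfb2* and *Inhbb* are below this mean, dotted lines mark 2-fold, and *Ltbp2* lies above the line in both panels.

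The members share chromosomes in 3 pairs. *Tgfb3* and *Ltbp2* lie 1.18 Mb apart on chromosome 12, and *Tgfb1* and *Ltbp4* lie 1.60 Mb apart on chromosome 7, whereas *Tgfb2* and *Inhbb* are 67.2 Mb apart on chromosome 1. The ratio of FPKM between TGF-β and CTRL was 2.97 for *Ltbp2* and 0.955 for *Tgfb3*, and 0.767 for *Ltbp4* and 0.911 for *Tgfb1*. The *Ltbp* genes have long transcripts with 28 to 36 exons in the longest coding form, and the ligand genes have 7.

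The genes most like *Ltbp2* were sought among the 9226 genes whose mean FPKM was 1 or more, by the Euclidean distance over the 2 differences to CTRL, hence over 3 libraries. The nearest was *Skil*, which encodes SnoN, a repressor of SMAD proteins. Its FPKM was 2.45 in CTRL, 6.07 with GDF15 and 8.86 with TGF-β (distance 0.0087). It was followed by *Raet1b* (0.0797), which was near 0 in CTRL and has near-identical paralogs, *D18Ertd653e* (0.0907), *Sertad4* (0.117) and *Itgb5* (0.156). A pattern over 3 libraries holds only 2 differences, and many genes can share it.

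The machinery that processes and releases latent TGF-β was followed as a list of 24 genes, of which 20 were in the table and 16 had a mean FPKM of at least 1. More than 1.5-fold, 3 genes were higher in GDF15 (*Thbs1*, *Itgav* and *Itgb5*) and 0 lower, and in TGF-β 3 were higher (*Itgb3*, *Itgb5* and *Tgm2*) and 2 lower (*Mmp9* and *Plat*). Over all rows, the shares past 1.5-fold were 0.791% higher and 1.02% lower in GDF15 and 1.65% and 1.95% in TGF-β. *Itgb5*, the β subunit that pairs with the αv chain to an integrin able to release latent TGF-β, was at 56.3 in CTRL, 128.6 with GDF15 and 169 with TGF-β. *Itgav*, the αv chain, was at 44.1, 71.3 and 62.7. *Thbs1*, which encodes thrombospondin-1, an activator of latent TGF-β, was at 6.37, 11.4 and 8.20. *Tgm2*, a transglutaminase that crosslinks matrix proteins including LTBP1, was at 7.13, 11.05 and 13.2. *Plat*, a plasminogen activator, was at 28.9, 25.3 and 17.6. *Furin*, the convertase that cuts the ligand precursors, was at 24.2, 23.5 and 23.6, and was named after its values were seen. The most abundant were *Ctsd* (885 in CTRL) and *Pdia3* (283 in CTRL), with differences to CTRL of -0.09 and 0.42 in GDF15 and -0.15 and 0.32 in TGF-β.

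The matrix partners of LTBPs were listed as 15 genes, with 13 in the table. In GDF15, 6 were more than 1.5-fold higher and 0 lower, and in TGF-β 5 were higher and 1 (*Dcn*) was lower, against 0.791% and 1.02% of all rows in GDF15 and 1.65% and 1.95% in TGF-β. *Fbn1*, which encodes fibrillin-1, the microfibril to which LTBPs attach, was at 95.7 in CTRL, 162.6 with GDF15 and 184 with TGF-β. *Fbln5*, the partner of LTBP4, was at 17.6, 41.1 and 48.5, while *Ltbp4* itself was not higher. *Fbln2*, another fibulin, and *Fn1*, which encodes fibronectin, were at 257 and 3738 in CTRL, 479.6 and 5815 with GDF15 and 622 and 5385 with TGF-β. *Fbln5*, *Bgn* and *Aspn* were more than 2-fold higher in GDF15, as were *Itgb5* and *Ltbp2*, and so met the criterion by which the study selected genes on these same libraries, which is no independent evidence of their direction. The proteoglycan genes *Bgn* and *Aspn* differed from CTRL by 1.40 and 1.92 in GDF15 and 1.94 and 2.33 in TGF-β, and *Dcn* by -0.04 and -0.75. The median difference of the 13 genes was 0.49 by GDF15 and 0.53 by TGF-β.

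**Figure D5:**
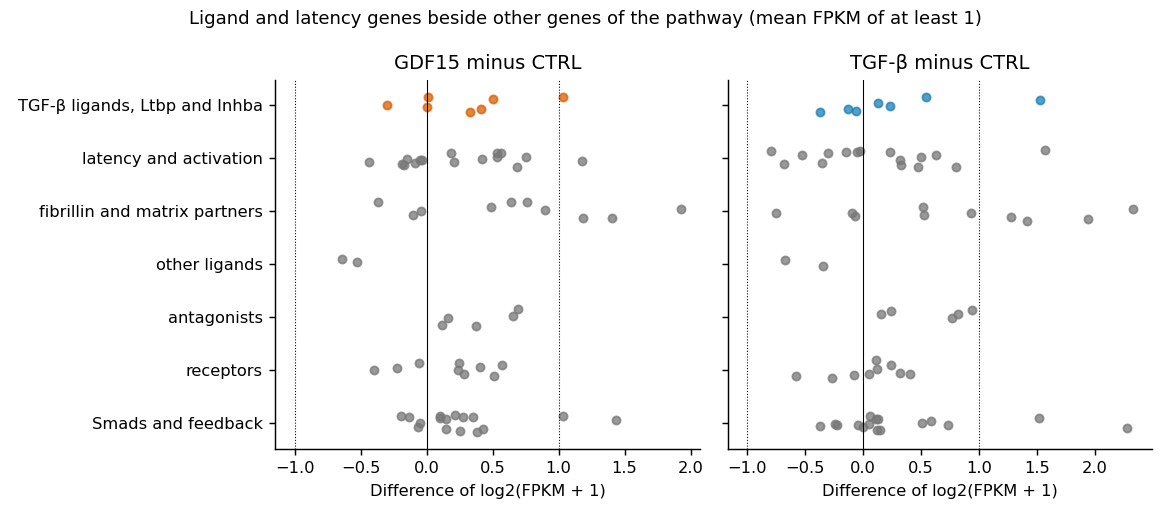
Difference of log2(FPKM + 1) to CTRL for genes whose mean FPKM was 1 or more, with 1 point per gene and 1 row per list, the vertical scatter within a row being for display only. The top row holds 7 of the 9 genes described here, dotted lines mark 2-fold, and the matrix partners reach 1.92 by GDF15 and 2.33 by TGF-β.

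Of 28 other ligand genes of the family, 16 were listed at 0 in all 3 libraries and 2 had a mean FPKM of at least 1. More than 1.5-fold, 1 was lower in GDF15, 1 was lower in TGF-β and 0 were higher in either, against 1.02% and 1.95% of all rows lower and 0.791% and 1.65% higher. *Inha*, the α subunit that turns an activin β subunit into inhibin, was at 15.1 in CTRL, 9.31 with GDF15 and 11.6 with TGF-β, and was past 1.5-fold lower in GDF15. It exceeded *Inhba* in each library. *Gdf11* was at 7.74, 5.07 and 4.49, past 1.5-fold lower in TGF-β. *Gdf15* mRNA, also named after its values were seen, was at 0.121 in CTRL, 0.104 with GDF15 and 0.0636 with TGF-β. Of the 15 receptor genes, 0 were past 1.5-fold in either library on the scale of log2(FPKM + 1), which is near the share of all rows in both directions. On this scale *Tgfbr3* was at -0.58 in TGF-β and *Bmpr1a* at 0.57 in GDF15, just inside 1.5-fold. As plain ratios of FPKM both are just past it. *Tgfbr3*, the coreceptor betaglycan, was the most abundant by the mean of the 3 libraries, at 45.7, 39.1 and 30.2, and *Bmpr1a* was next by this mean, at 16.5, 24.9 and 22.05.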

How the data were processed

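Total RNA of NIH3T3 fibroblasts was measured by RNA-seq in 3 groups with 1 pooled library each. The groups were taken from the labels, and the pooling from the methods of the authors. The column headers of the stimulated libraries name the treatment after a line name whose last digit counts up from that of NIH3T3, as when cells of a spreadsheet are filled, and the columns were assigned by the treatment alone. The authors made stranded mRNA libraries, sequenced 50-base single-end reads, and deposited FPKM computed with Cufflinks for protein coding genes reviewed in UniProt. The submitters' processing notes also name TopHat 1.3.2, Bowtie 0.12.9, Cufflinks 2.0.2 and mm10. The annotation and strand setting are not given in the sources used here.

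Differences of log2(FPKM + 1) were computed over all 15554 rows. A call is a difference over 2-fold or 1.5-fold. The pseudocount of 1 understates differences of low genes. Local spread is 1.4826 times the median absolute deviation over the gene and the 500 others nearest in mean FPKM. Depth came from the steps of FPKM times length in genes with 1 transcript of at least 1500 bases. Lengths and gene coordinates are from GENCODE M21 (GRCm38, the build of mm10), in which 15473 rows were matched, 748 of them by older symbols in RefSeq (GRCm38.p6). The steps and spreads were tested on simulated data. Alternatives were pseudocounts of 0.5, 0.1 and none, a minimum mean FPKM of 1, upper quartile scaling, removal of the trend with expression or with transcript length, and shifts by 1 counting error for shares.

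The members and lists were chosen with earlier results of these data known. All 9 members are named. Genes named from other lists are those past 1.5-fold by either stimulus and the 2 most abundant, apart from withheld items, which are not reported here, and genes most like the member with the largest difference by TGF-β are the 5 nearest. The values were computed in Python 3.11.15, using scipy 1.17.1, pandas 2.3.3, numpy 2.4.6 and matplotlib 3.10.9.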

Additional observations from a re-analysis of the deposited data

How the results depend on the processing

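No paired analysis was possible because a treatment is represented by 1 pool of RNA, and leaving out a library was not possible either. The alternatives gave 180 values of single members, of which 169 differed from the reported value by no more than the local spread, and 11 differed by more. The 11 are those of *Tgfb2* and *Inhbb*, the members with the lowest FPKM, and all 21 values of *Ltbp2* stayed within it. The sign differed from the reported one in 8 of the 180 values, those of *Ltbp4* by GDF15, *Tgfb2* and *Tgfb3* by TGF-β and *Inhbb* by GDF15 and between GDF15 and TGF-β, whose reported differences were at most 0.06 in size. The median difference of the members by GDF15 was 0.33 when a mean FPKM of at least 1 was required, because this leaves 7 genes. *Ltbp2* was not past 2-fold by GDF15 after removal of the length trend, which leaves 0 genes past it. More than 1.5-fold higher in GDF15 were 2 genes with a pseudocount of 0.1 and 2 without one (*Ltbp2* and *Inhba*). In TGF-β, 2 genes were past 1.5-fold after upper quartile scaling and 2 after removal of the expression trend (*Ltbp2* and *Ltbp3*). After removal of the length trend, 1 gene (*Ltbp2*) was more than 1.5-fold higher in TGF-β than in GDF15. The shares and the ratio were recomputed only with shifts by 1 counting error, which is no check on the processing. Depth limits statements on *Tgfb2* and *Inhbb*, and the missing replicates limit all others, since the local spread is one among genes and not among cultures.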

Other observations

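Antagonists and SMAD genes complete the lists. Of 11 antagonist genes of the family, 5 had a mean FPKM of at least 1. *Fstl1* was more than 1.5-fold higher than CTRL in both stimulated libraries and *Fstl3* in TGF-β. *Fstl3*, which binds activins, was at 3.32 in CTRL, 4.58 with GDF15 and 6.34 with TGF-β, so that the activin antagonist was highest in TGF-β and the activin subunit *Inhba* in GDF15. *Fst*, which encodes follistatin and was named after its values were seen, was at 0.275, 0.687 and 0.787. *Fstl1*, a secreted glycoprotein of mesenchymal cells, was at 249, 404 and 441, and *Nbl1* was at 33.7, 36.6 and 39.99.

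Of 18 genes for SMAD proteins and their feedback, 17 were in the table. More than 1.5-fold higher were 2 in GDF15 (*Skil* and *Pmepa1*) and 3 in TGF-β (*Skil*, *Pmepa1* and *Tgif1*), and 0 were lower in either, against 0.791% of all rows higher and 1.02% lower in GDF15 and 1.65% and 1.95% in TGF-β. *Pmepa1*, an inhibitor of SMAD signaling, was at 1.53 in CTRL, 5.83 with GDF15 and 11.2 with TGF-β, and *Tgif1*, a transcriptional corepressor, at 55.6, 64.8 and 93.3. *Tgfbi*, the most abundant of the list by the mean of the 3 libraries, was at 83.05, 89.4 and 83.2.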
